A study of Arabidopsis thaliana with 12 samples.

Results

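The SWEET genes of Arabidopsis encode sugar transporters of the plasma membrane and the vacuole. The 10 genes described here, SWEET1, SWEET2, SWEET3, SWEET4, SWEET10, SWEET11, SWEET12, SWEET15, SWEET16 and SWEET17, were chosen by gene symbol, and 9 of them were found in the array annotation used here, out of 13264 nuclear genes named there. SWEET15 is listed there under its older name SAG29 and was taken through the synonym in the RefSeq gene table. SWEET12 has no named probe set in that annotation and was not analysed here. Each of the 9 genes has 1 probe set, and none of these carries the suffix _s_at or _x_at that marks probe sets matching several transcripts. Whether a probe set also takes up transcript of a closely related gene was not tested. The family was selected with earlier results of these arrays known, so the test values below describe each gene's fit and are not independent support for a rhythm of the family.

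RNA came from whole wild-type seedlings (Col-0) carrying CCR2::LUCIFERASE, a luciferase reporter of a clock-regulated gene, and this reporter was in every sample. Seedlings were raised on medium that contained sucrose, spent 7 d in cycles of light and dark, and were then kept in constant white light. The first harvest followed 24 h of constant light and the last 68 h, at intervals of 4 h, so that 2 circadian cycles were sampled. RNA of the 12 harvests went onto 12 Affymetrix ATH1 arrays. Circadian time (CT) counts hours from subjective dawn, which is CT0 at 24 h and at 48 h, and subjective night runs from CT12.

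SWEET proteins let sugars cross a membrane down their concentration gradient, in either direction and without the use of protons, unlike the sugar symporters. The family falls into 4 clades. Clades I and II mainly carry hexoses, clade III mainly carries sucrose, and clade IV proteins sit in the membrane of the vacuole and carry fructose. In leaves, clade III proteins release sucrose from phloem parenchyma so that it can be loaded into the phloem. Sugar made by day and starch broken down by night both feed this export.

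No time was replicated. Errors below therefore rest on how far the 12 arrays lie from their fitted curve, and precision is limited by how many arrays there are. Standard errors of amplitude, peak time and trend use limma's spread, which is drawn towards that of all genes in the same fit. Intervals of peak time differences use the scatter of the genes compared alone. Array medians lay between 149.9 and 153.6, and log2 values of any 2 arrays correlated between 0.979 and 0.992. Scanning took 3 days. Scan day 1 held the 24 h array and those between 32 h and 52 h (7 arrays), the 4 last harvests followed on scan day 2, and the 28 h array was scanned alone on scan day 3. GI, a clock-associated gene used as a check of the labels, had a fitted peak-to-trough ratio of 2.32 with its peak at CT10.5 (adjusted p = 0.000268, limma). The 5 named shoot markers and the 3 named root markers were well represented, with mean intensities at percentiles of all named probe sets between 66.9 for the root hair gene EXPA7 and 100 for RCA, which activates Rubisco. Flower and seed markers were not named in the annotation and were not checked. In whole seedlings, fewer cells of a type and less RNA per cell cannot be told apart.

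Each gene above an intensity filter was fitted with a 24-h cosine on log2 intensity plus a linear trend, and p values were adjusted over all 9161 genes tested. All 9 SWEET genes passed the filter. The filter ranked probe sets by mean intensity, with 80.1 as the lowest geometric mean kept, and was not a detection call. The mean intensity of SWEET10 (130.2) lay below every array median. That of SWEET3 (150.4) lay within the range of the array medians (149.9 to 153.6). Whether the signals of SWEET3 and SWEET10 lay above background was not tested. SWEET1, SWEET4, SWEET11, SWEET15 and SWEET17 had a rhythm at an adjusted p below 0.05, which is 5 of 9 genes, and 1012 of all tested genes (11.0%) were called in the same fit. The median log2 amplitude of the 9 genes, from the mean of the curve to its peak, was 0.179, against 0.088 over all tested genes. SWEET2, SWEET3, SWEET10 and SWEET16 did not pass. Intensities of different probe sets depend on the probes as well as on the transcript, so the levels below are compared between times and not between genes, and the clades cannot be ranked by level from these arrays.

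**Figure D1:**
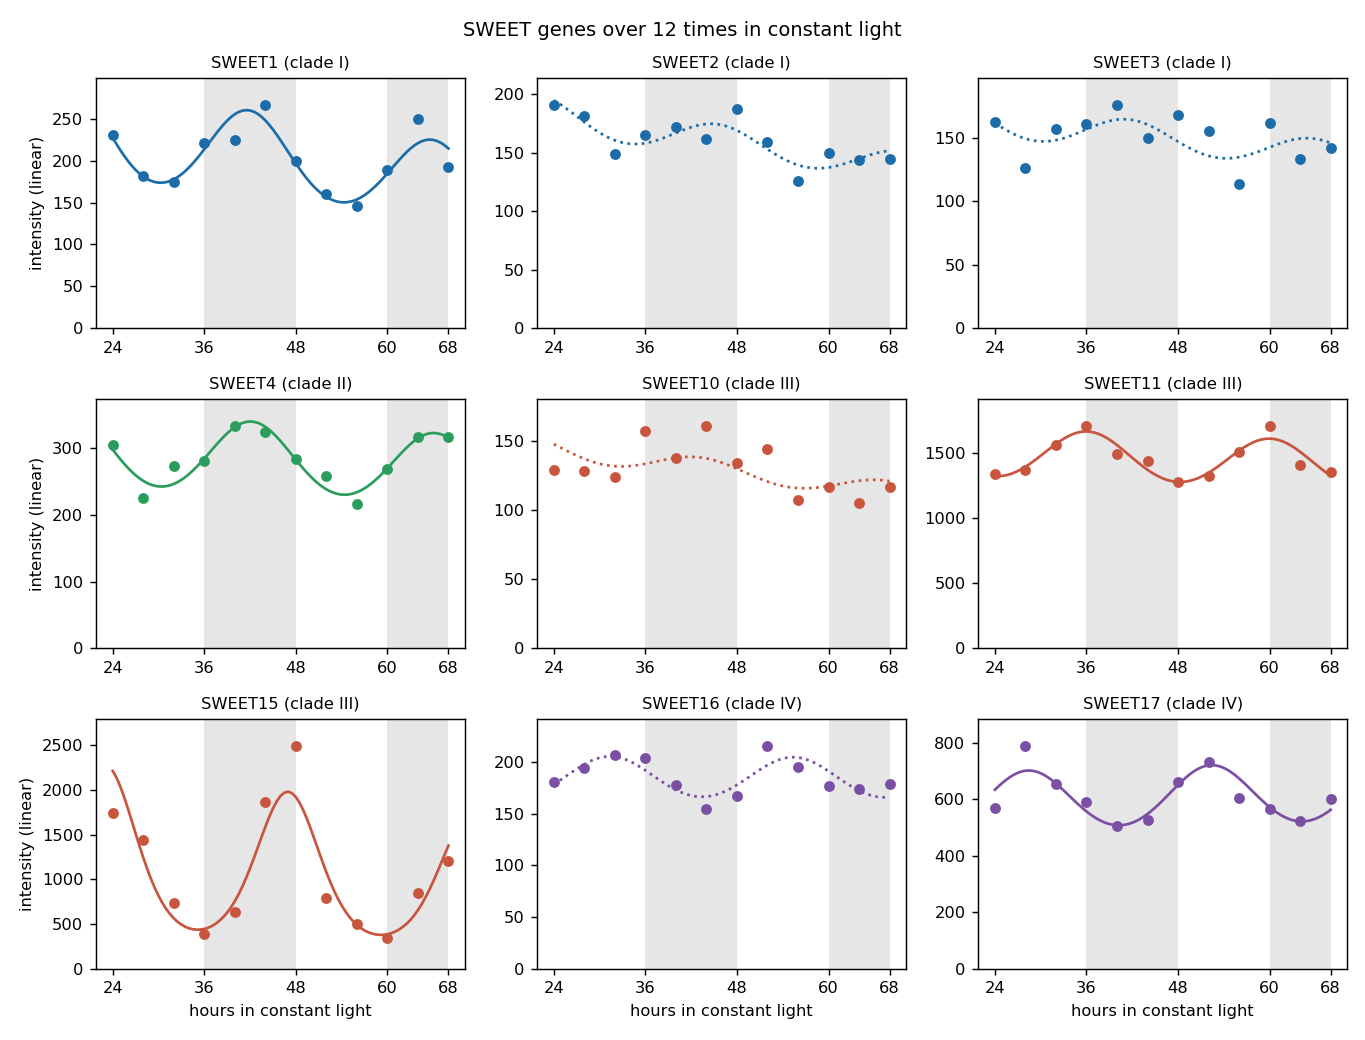
Intensity (linear, each axis from 0) against hours in constant light for the 9 SWEET genes, 1 point per array, with the fitted 24-h curve drawn solid for the 5 rhythmic genes and dotted for the other 4. Grey marks subjective night, and colours mark clades. The 7.14-fold range of SWEET15 stands apart from the ranges of the other 8 genes, which lie between 1.34-fold and 1.83-fold.

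Of the clade III genes, SWEET15 had the widest swing of the 9. SWEET15 (SAG29) was first described as a senescence-associated gene and later as a sucrose carrier that helps to fill seeds together with SWEET11 and SWEET12. Its intensities from 24 h to 44 h were 1735.4, 1435.6, 738.3, 387.5, 636.0 and 1866.5, and from 48 h to 68 h they were 2488.6, 785.5, 497.9, 348.6, 845.7 and 1200.7. It was high around subjective dawn, with its highest arrays at 48 h, 44 h and 24 h, and lowest at CT12 in both cycles. The fitted log2 amplitude was 1.14 ± 0.11 (SE, 12 arrays), a peak-to-trough ratio of 4.86, with the peak at CT23.0 ± 0.412 (SE, in h; adjusted p = 6.79e-05, limma). Ordered by amplitude, SWEET15 was number 3 of the 1012 rhythmic genes, of which 11 had a log2 amplitude above 1 and whose median was 0.237. This rank covers only the 9161 tested genes. Of 22810 probe sets on the array, 8794 had no gene symbol in the annotation and were not ranked.

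SWEET11, which with SWEET12 exports sucrose for phloem loading in leaves, ran close to opposite in phase to SWEET15. Its intensities were 1337.7, 1371.9, 1562.3, 1708.7, 1493.1 and 1438.1 from 24 h to 44 h, and 1276.0, 1325.7, 1512.4, 1712.5, 1413.4 and 1353.1 from 48 h to 68 h. The highest array of each cycle was that of CT12 and the lowest that of CT0, and arrays 24 h apart differed by less than the range of either cycle. The swing was small, with a log2 amplitude of 0.18 ± 0.03 (SE), a peak-to-trough ratio of 1.28, and the peak at CT12.1 ± 0.768 (SE, in h; adjusted p = 0.0105, limma).

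SWEET10, the remaining clade III gene here, is known as a gene raised in the shoot apex by the floral regulator FT. Its lowest intensity was 104.9 at 64 h and its highest 161.3 at 44 h, and high and low values did not return at the same circadian times. The fitted log2 amplitude was 0.08 ± 0.07 (SE), and the adjusted p was 0.692 (limma). Across 12 times the highest value of the first cycle lay at CT20 and that of the second at CT4.

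SWEET1, a clade I glucose transporter of the plasma membrane, peaked in subjective night. Its intensities were 230.8, 181.4, 174.9, 221.4, 224.7 and 266.6 from 24 h to 44 h, and 199.9, 160.6, 145.8, 189.6, 250.6 and 192.2 from 48 h to 68 h. The lowest array was that of CT8 in both cycles, and the highest moved between CT20 (44 h) and CT16 (64 h). The log2 amplitude was 0.34 ± 0.05 (SE), a peak-to-trough ratio of 1.61, with the peak at CT17.9 ± 0.527 (SE, in h; adjusted p = 0.00137, limma).

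The other clade I genes had no rhythm that passed the test. SWEET2, a transporter of the vacuolar membrane that limits loss of sugar from roots, had its lowest intensity of 126.1 at 56 h and its highest of 190.8 at 24 h. CT0 was highest and CT8 lowest in both cycles, with a log2 amplitude of 0.12 ± 0.04 (SE; adjusted p = 0.180, limma). SWEET3 ranged between 113.4 at 56 h and 175.6 at 40 h, with a log2 amplitude of 0.11 ± 0.07 (SE; adjusted p = 0.499, limma).

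SWEET4, a hexose transporter and the only clade II gene among the 9, was also highest in subjective night. Its intensities were 305.1, 224.9, 273.1, 280.9, 333.9 and 324.7 from 24 h to 44 h, and 283.2, 258.4, 216.4, 268.8, 317.0 and 316.8 from 48 h to 68 h. CT16 was highest in both cycles, and the lowest array was that of CT4 in the first cycle and of CT8 in the second. The log2 amplitude was 0.26 ± 0.04 (SE), a peak-to-trough ratio of 1.44, with the peak at CT18.2 ± 0.615 (SE, in h; adjusted p = 0.00377, limma). The lowest arrays were that of 28 h, scanned alone on scan day 3, and that of 56 h, from scan day 2. The adjusted p of SWEET4 was 0.00567 without 28 h, 0.0314 without 56 h and 0.236 on the arrays of scan day 1 alone (limma).

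In clade IV, SWEET17 passed the test and SWEET16 did not. SWEET17, which moves fructose across the vacuolar membrane of roots and leaves, had intensities of 570.2, 788.8, 654.5, 591.3, 507.3 and 526.2 from 24 h to 44 h, and 663.1, 731.8, 604.0, 564.7, 522.8 and 599.5 from 48 h to 68 h. CT4 was highest and CT16 lowest in both cycles. The log2 amplitude was 0.24 ± 0.05 (SE), a peak-to-trough ratio of 1.40, with the peak at CT4.33 ± 0.691 (SE, in h; adjusted p = 0.0129, limma). The array of 28 h, the highest for SWEET17, is the one that was scanned alone, and without it the adjusted p of SWEET17 was 0.0266 (limma).

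SWEET16, the other vacuolar gene, had its lowest intensity of 154.7 at 44 h and its highest of 215.4 at 52 h. The fitted log2 amplitude was 0.15 ± 0.04 (SE), with the peak of the curve at CT7.39 (adjusted p = 0.0757, limma). The gene was called in 1 of 9 other settings, the upper 50% of probe sets by intensity (adjusted p = 0.0481, limma), and the highest adjusted p of these settings was 0.143, without the filter. It was called in 0 of 12 fits that left out 1 time, with adjusted p values between 0.0564 and 0.200 (limma).

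The 5 rhythmic genes were spread around the cycle, with SWEET17 early in subjective day, SWEET11 at subjective dusk, SWEET1 and SWEET4 in the middle of subjective night and SWEET15 shortly before dawn. Among the 10 pairs, 9 had a difference in peak time whose 95% interval left out 0. Each interval was taken from the joint scatter of both genes around their curves. The 10 pairs share 5 genes, and the intervals were not adjusted for their number. All rhythmic genes together also peaked around the whole cycle, with 135 (from CT12) to 232 (from CT4) per 4-h window. The share of such pairs among all rhythmic genes was not computed, so the count cannot be called particular to SWEET genes. Peak times and intervals hold the period at 24 h and leave out any uncertainty in it. When the period was searched, the best value was 22.0 h for SWEET1 and SWEET17 and 25.0 h for SWEET4. SWEET11 peaked 11.0 h before SWEET15 (95% interval 9.33 to 12.6 h), although both belong to clade III. This was the largest of the 10 differences, and its interval overlapped that of SWEET17, which peaked 10.4 h after SWEET1 (8.38 to 12.5 h).

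The one pair whose interval held 0 was SWEET1 and SWEET4, of clades I and II. SWEET4 peaked 0.293 h after SWEET1, with a 95% interval from -1.55 to 2.14 h, which does not show that the genes peak together. SWEET1 peaked 5.82 h after SWEET11 (3.98 to 7.66 h) and SWEET15 peaked 5.13 h after SWEET1 (3.45 to 6.81 h). SWEET17 peaked 5.28 h after SWEET15 (3.26 to 7.31 h) and SWEET11 peaked 7.77 h after SWEET17 (5.72 to 9.81 h). Clades I, II and IV each hold only 1 rhythmic gene here, so peak times could not be compared between clades beyond these single genes.

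**Figure D2:**
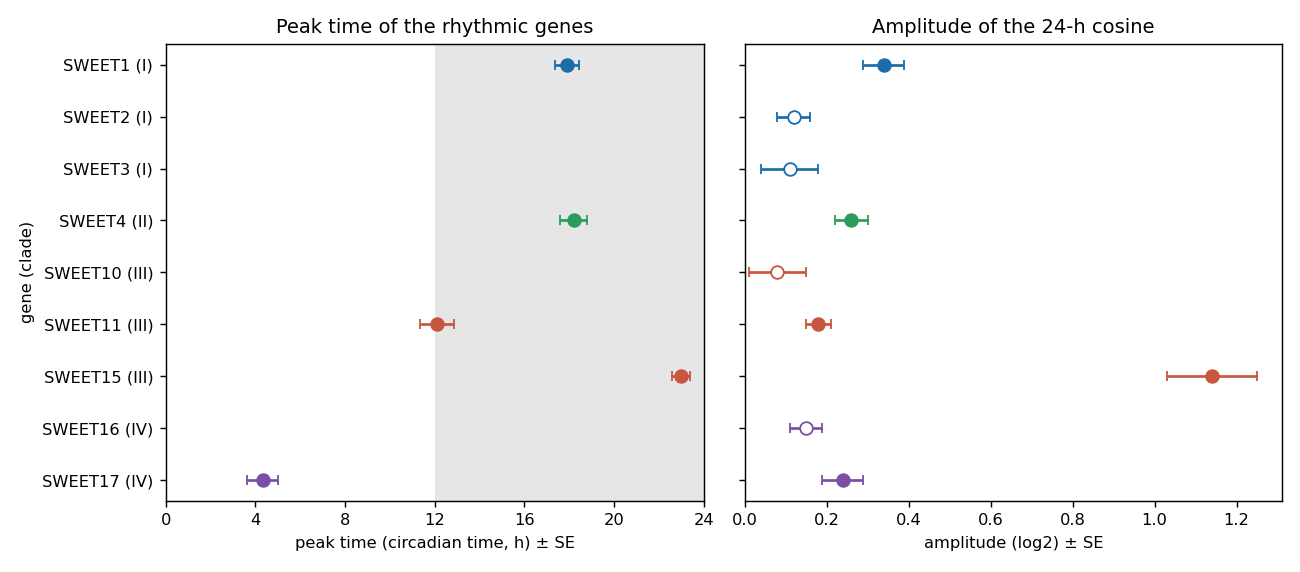
Left, peak time (circadian time, h) of the 5 rhythmic SWEET genes with SE, with subjective night in grey. Right, log2 amplitude with SE of all 9 genes, filled for rhythmic genes and open for the others, with clades in brackets and by colour. The peaks of the clade III genes SWEET11 (CT12.1) and SWEET15 (CT23.0) lie 11.0 h apart, and the amplitude of SWEET15 (1.14) lies above that of SWEET1 (0.34), the next in size.

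With the 2 cycles fitted separately, SWEET15 had a log2 amplitude of 1.21 with its peak at CT22.7 in the second cycle, against 1.14 and CT23.8 in the first. SWEET11 had 0.18 and CT11.6 in the second cycle, against 0.16 and CT12.0 in the first. SWEET1 peaked at CT17.8 in the second cycle, against CT19.0 in the first, and SWEET4 at CT19.0, against CT17.8. SWEET17 had the largest difference of the 5, with its peak at CT2.83 in the second cycle, against CT5.50 in the first. All peaks by cycle were fitted without a trend on the arrays of that cycle alone and carry no error. They do not show that a peak moved or that the order of SWEET1 and SWEET4 changed. A test of whether the rhythm differed between cycles passed in 0 of the 9 genes (limma, adjusted p below 0.05), where 4 of 9161 genes (0.0437%) passed. That does not show that the cycles are alike. SWEET10 was the only 1 of the 9 with an unadjusted p below 0.05, which 9.57% of all tested genes had. Its adjusted p was 0.445 (limma).

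**Figure D3:**
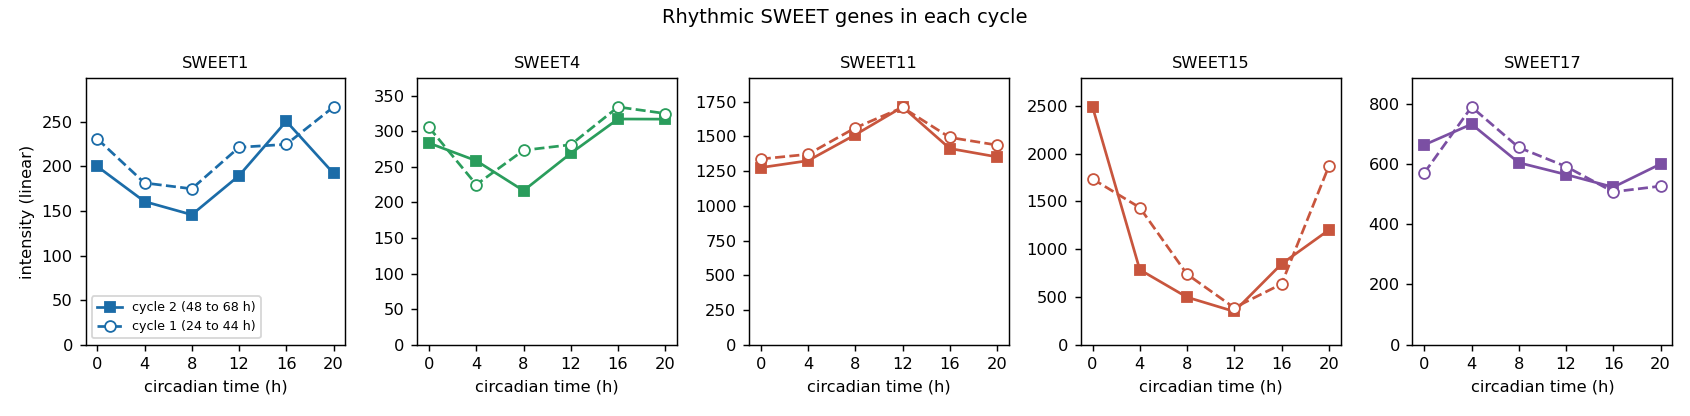
Intensity (linear, each axis from 0) against circadian time (h) for the 5 rhythmic SWEET genes, with the second cycle (48 to 68 h) as filled squares and the first cycle (24 to 44 h) as open circles. Both cycles of SWEET11 are highest at CT12 and both cycles of SWEET15 are lowest there.

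No linear trend over the 44 h passed the test in any of the 9 genes, and 2 of all tested genes (0.0218%) were called (limma, adjusted p below 0.05). SWEET1 and SWEET2 had a trend at an unadjusted p below 0.05, as did 13.1% of all tested genes. The trend of SWEET1 was -0.21 ± 0.06 in log2 intensity per day (SE; adjusted p = 0.204, limma), and its mean intensity was 189.8 in the second cycle and 216.6 in the first. That of SWEET2 was -0.20 ± 0.06 per day (SE; adjusted p = 0.194, limma), with means of 151.8 in the second cycle and 170.0 in the first. Its second cycle was lower at 6 of 6 circadian times, a count that was not made over all genes. The sign of the trend was negative in 8 of the 9 genes and in 49.5% of all tested genes. The arrays from 56 h to 68 h were all scanned on scan day 2, so a change over time overlaps in part with scan day.

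Scan day overlaps with time and was used as a block in a second fit. The same 5 genes were called there, where 8.44% of all tested genes were, with adjusted p values of 0.000539 for SWEET15, 0.00532 for SWEET1, 0.00804 for SWEET4, 0.0207 for SWEET17 and 0.0431 for SWEET11 (limma). On the 7 arrays of scan day 1 alone, fitted without a trend, 3.37% of all tested genes were called, and SWEET15 was the only call among the 9, with a log2 amplitude of 1.15 ± 0.15 (SE) and a peak at CT23.0 (adjusted p = 0.00584, limma). SWEET1, SWEET4, SWEET11 and SWEET17 had log2 amplitudes of 0.32, 0.18, 0.18 and 0.25 on these 7 arrays, against 0.34, 0.26, 0.18 and 0.24 on all 12. Without the intensity filter, where 4.66% of 13264 genes were called, the same 5 genes passed. With scan day as a block and no filter, where 3.08% of genes were called, SWEET1, SWEET4 and SWEET15 passed, and SWEET11 and SWEET17 had adjusted p values of 0.105 and 0.0644 (limma).

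The array of 56 h gave the lowest intensity of SWEET1, SWEET2, SWEET3 and SWEET4, which is 4 of the 9 genes, whereas it gave the lowest value of 11.0% of all tested genes. Without this array the adjusted p values of SWEET1 and SWEET4 were 0.0110 and 0.0314 (limma). With each time left out in turn, SWEET1, SWEET4 and SWEET15 were called in all 12 fits. SWEET11 was called in 11 of them and missed without 36 h (adjusted p = 0.0505, limma), and SWEET17 was called in 11 and missed without 52 h (adjusted p = 0.0543, limma).

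**Figure D4:**
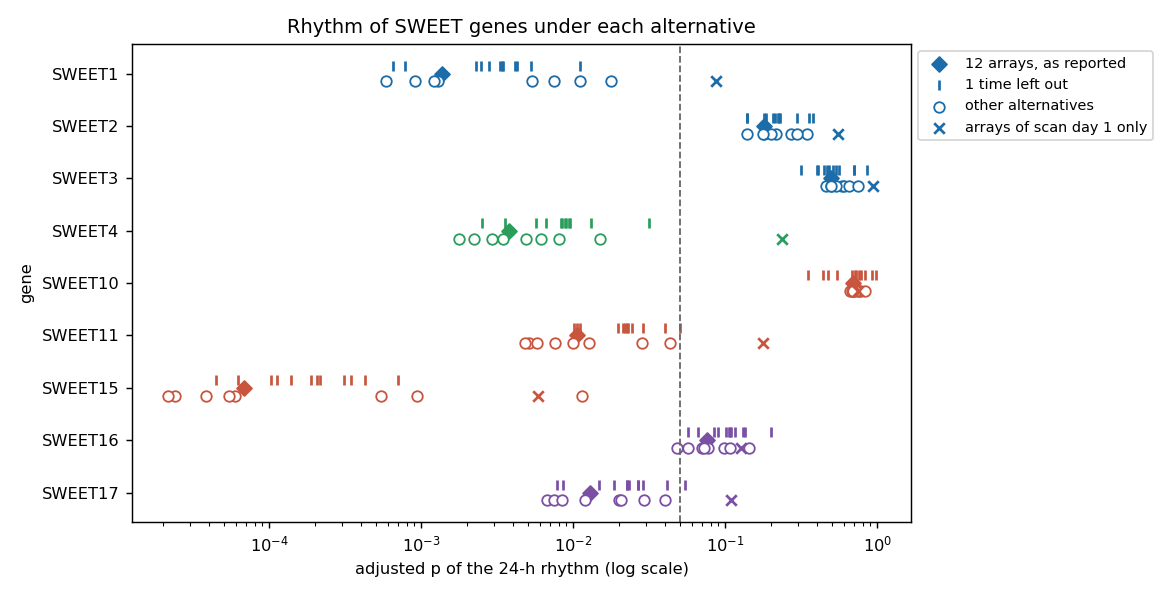
Adjusted p of the 24-h rhythm (log scale) for each of the 9 SWEET genes on all 12 arrays (diamonds), with 1 time left out (ticks), under other alternatives (circles) and on the arrays of scan day 1 only (crosses). The dashed line is 0.05, and every mark of SWEET15 lies below it, whereas every mark of SWEET2, SWEET3 and SWEET10 lies above it.

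Among the 7 SWEET genes outside the list, 4 passed the intensity filter and 2 of these were rhythmic, in the fit that called 11.0% of all tested genes. SWEET14, a clade III gene whose product also carries gibberellin, had a log2 amplitude of 0.23 ± 0.04 (SE) with its peak at CT23.7 (adjusted p = 0.00658, limma). Its highest intensity was 357.3 at 48 h and its lowest 234.7 at 36 h. Like SWEET15, it was lowest at CT12 in the first cycle and highest at CT0 in the second. The other extremes differed. In the first cycle SWEET14 was highest at CT4 and SWEET15 at CT20, and in the second SWEET14 was lowest at CT8 and SWEET15 at CT12. SWEET13, a clade III gene next to SWEET10 on the chromosome, had a log2 amplitude of 0.14 ± 0.03 (SE) with its peak at CT2.84 (adjusted p = 0.0475, limma), and it did not pass without the intensity filter (adjusted p = 0.0892, limma). SWEET8 (adjusted p = 0.217, limma) and SWEET9 (adjusted p = 0.899, limma) did not pass, and SWEET5, SWEET6 and SWEET7 lay below the filter. The coding sequences of SWEET13 and SWEET14 are closely related, and the probe set of either could also take up transcript of the other.

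Few of the genes that work beside the SWEETs were named in the annotation. From 7 lists of sucrose and hexose carriers, chloroplast sugar export, sucrose and starch metabolism and sugar sensing, 10 genes were named, 9 passed the intensity filter and 2 of these (22.2%) were rhythmic, against 11.0% of all tested genes. These were DPE1, the disproportionating enzyme that works on the products of starch breakdown in the chloroplast, with a log2 amplitude of 0.48 ± 0.04 (SE) and a peak at CT11.2 (adjusted p = 3.91e-05, limma), and SFP2, a sugar transporter-like gene of another family, with 0.22 ± 0.04 (SE) and a peak at CT2.87 (adjusted p = 0.00409, limma). The tonoplast sugar antiporter genes TMT1, TMT2 and TMT3 were named and did not pass, with adjusted p values of 0.444, 0.526 and 0.593 (limma). No sucrose symporter or hexose symporter gene of the SUC and STP families was named.

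The genes whose 12 log2 values were most like those of each rhythmic SWEET gene were taken as the 3 with the highest Pearson's r among all tested genes. These r values all rest on the same 12 arrays and their common scaling. For SWEET15 these were AT2G34460 (r = 0.968), AT1G22850 (r = 0.961) and ARD4 (r = 0.947), an acireductone dioxygenase of methionine salvage, which peaked between CT23.0 and CT23.9. For SWEET11 they were AT4G33670 (r = 0.917), AT1G07280 (r = 0.911) and AT5G32400 (r = 0.910). For SWEET1 they were AT1G28570 (r = 0.946), AT3G21410 (r = 0.915) and AT3G61700 (r = 0.914), and for SWEET4 they were the beta-glucosidase gene BGLU36 (r = 0.939), AT5G43740 (r = 0.922) and AT2G44830 (r = 0.915). For SWEET17 they were AT2G29340 (r = 0.953), AT1G26940 (r = 0.913) and AT4G28400 (r = 0.908), of which only AT4G28400 was itself rhythmic (adjusted p = 0.00161, limma). No SWEET gene was among these 15 genes, but each set held only the top 3 of 9161 tested genes. Among the 9 SWEET genes themselves, r lay between -0.84 (SWEET11 with SWEET15) and 0.81 (SWEET1 with SWEET4).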

How the data were processed

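Transcript levels were measured on 12 ATH1 arrays, 1 for each harvest. The values are linear intensities, deposited in 1 table of 22810 probe sets whose arrays the authors had brought to a common scale. MAS5, without a version, is the tool in the submitters' processing notes, whereas the methods take expression from dChip and presence calls from MAS 5.0, so which of them made the table is not settled (not given in the sources used here). Other records of each array, also deposited, served for the scan day alone. No column of sample values was left out.

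Gene names came from the platform annotation of GEO and from RefSeq (TAIR10.1), with 13513 carrying 1 symbol, 503 several and 8794 none. Intensities below 1 were set to 1, log2 was taken, and the upper 69% of 13415 nuclear probe sets by mean were kept, 1 per gene. limma 3.58.1 (R 4.3.3) fitted a 24-h cosine, a sine and a trend over time (8 residual degrees of freedom), tested by limma's moderated F-test with p values adjusted after Benjamini and Hochberg over all tested genes. The fit was also run on simulated data, with each gene's residuals shuffled over the times and rhythms of known size added. Shuffling removes any pattern by scan day, so calls under the scan day layout were not tested by it. Intervals of peak time differences used the residual covariance of both genes. Members and lists were chosen with earlier results of these data known. Named were every annotated SWEET gene, GI, up to 3 rhythmic genes per list and the 3 most similar genes of each rhythmic SWEET gene, while other list members were named after their values were seen. Alternatives were no filter, the upper 50%, linear intensities, log2 of intensity plus 32, quantile normalization, scan day as a block, no trend, no cosine, adjusted p below 0.01, removal of _s_at and _x_at probe sets, each time left out, and periods of 19 to 29 h tested by 100000 permutations of the times. Arrays of scan day 1 only, the scan day block with no filter, and no filter for the difference between cycles, were added after seeing the data. Promoter sequences were not analysed here. Other steps ran in Python 3.11.15 with pandas 2.3.3, numpy 2.4.6 and scipy 1.17.1, and plots were drawn with matplotlib 3.10.9.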

Additional observations from a re-analysis of the deposited data

How the results depend on the processing

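Of the alternatives, an adjusted p below 0.01 left 3 SWEET genes called rhythmic (SWEET1, SWEET4 and SWEET15) in place of 5, the upper 50% by intensity gave 6 (SWEET16 added), and the arrays of scan day 1 only left 1 (SWEET15), in a fit that has 7 arrays in place of 12. With 1 time left out in turn, 4 or 5 genes were called, while the count over all tested genes lay between 614 (without 56 h) and 1070 (without 40 h), against 1012. Scan day as a block together with no intensity filter left 3 SWEET genes (SWEET1, SWEET4 and SWEET15). The count over all genes was 439 at an adjusted p below 0.01, 618 without the filter and 309 on the arrays of scan day 1. No alternative run gave a linear trend in any of the 9 genes, and the count of peak time differences whose interval left out 0 was 9 of 10 under each alternative run for it. The best period between 19 and 29 h was searched in steps of 0.5 h, in a fit without a trend. Its p value came from 100000 permutations of the times, with no adjustment over the 9 genes. The 5 rhythmic genes had best periods of 22.0 to 25.0 h and permutation p values between 0.000360 (SWEET17) and 0.0210 (SWEET1). SWEET16 had 21.5 h and a permutation p of 0.0129. No paired analysis was possible because the labels give no replicate numbers that would pair arrays of different times. For SWEET2, SWEET3, SWEET10 and SWEET16, an adjusted p above the threshold on 12 arrays does not show that a rhythm was absent.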
